A study of Mus musculus with 8 samples.

Results

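Chn1, Lmo4 and Cbln1 are 3 neuron genes that were measured by 5 spots on a 2-colour cDNA array of mouse brain RNA. They make up 3 of 8653 named genes and 5 of 12131 named spots, on an array of 20794 spots. The genes were selected on their mean log2 ratios over the same 8 arrays, which were positive in an earlier look, from lists of forebrain and cerebellar neuron markers. The sign and size of that mean ratio are therefore described here without a test.

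The study compared brains of 4 male ADAR2 mutant mice (ADAR-/-/GluR-BR/R, 19 weeks of age) with 1 RNA pool, made from brains of wildtype males that were also 19 weeks old. The mutants lack ADAR2, an adenosine deaminase that edits neuronal transcripts, and carry GluR-B alleles that encode the arginine form of this AMPA receptor subunit without editing. Each mutant mouse was hybridised on 2 arrays, once with its RNA in Cy5 and the pool in Cy3 and once with the dyes exchanged, which gave 8 arrays. The pool is named as 4 mice in the design text and as 6 control animals in the labelling protocol. The pool stands for all wildtype mice as 1 sample, so the spread between wildtype animals is not in any error below. Whole brain RNA was used, and fewer cells of a type cannot be told apart from less RNA per cell.

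Chn1 encodes alpha-chimaerin, a GTPase-activating protein that switches off the small GTPase Rac and acts below Eph receptors when axons and dendrites retract. It is made in a longer form with an SH2 domain and a shorter form without it, from different start sites, and is abundant in forebrain neurons. Lmo4 encodes a LIM-only protein with no DNA-binding domain of its own, which joins transcription factors to cofactors such as Ldb1 in cortical and other forebrain neurons. Cbln1 encodes a secreted relative of the complement protein C1q. In mice it is released by cerebellar granule cells and organises the synapses that their axons form, binding neurexin on the axon side.

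The DNA upstream of the start sites is shown for Chn1, to set its 2 start sites side by side, and for Lmo4, its nearest member in value (RefSeq, build GRCm38.p6, minus strand, 5′ to 3′, 250 bases ending at the base before the start). Capitals mark matches on either strand to the GC box GGGCGG, the TATA motif TATAAA, the CAAT motif CCAAT, the E-box variant CAGATG or the cAMP response element TGACGTCA. Matches can overlap one another.
Chn1 outer start, chr2:73775347-73775596: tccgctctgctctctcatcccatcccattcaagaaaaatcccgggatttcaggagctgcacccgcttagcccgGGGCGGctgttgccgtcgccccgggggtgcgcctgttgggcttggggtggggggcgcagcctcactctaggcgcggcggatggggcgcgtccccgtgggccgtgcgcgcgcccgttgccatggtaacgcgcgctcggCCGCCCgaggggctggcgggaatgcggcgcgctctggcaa
Chn1 inner start, chr2:73660424-73660673: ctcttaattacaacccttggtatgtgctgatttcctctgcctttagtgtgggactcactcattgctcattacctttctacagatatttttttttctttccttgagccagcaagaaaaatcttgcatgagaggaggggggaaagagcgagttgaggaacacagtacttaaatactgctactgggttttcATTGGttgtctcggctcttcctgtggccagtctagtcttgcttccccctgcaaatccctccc
Lmo4 outer start, chr3:144205256-144205505: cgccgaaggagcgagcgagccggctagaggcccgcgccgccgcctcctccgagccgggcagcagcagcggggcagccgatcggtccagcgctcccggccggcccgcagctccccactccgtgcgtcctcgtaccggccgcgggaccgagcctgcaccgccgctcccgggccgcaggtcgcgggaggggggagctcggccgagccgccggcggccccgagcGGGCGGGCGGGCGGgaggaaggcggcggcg
The outer starts of Chn1 and Lmo4 lie below GC-rich DNA (71.6% and 82.4% G or C, with 31 and 44 CpG dinucleotides) that holds 2 and 3 matches to the GC box. The inner start of Chn1 has 45.2% G or C, 2 CpG dinucleotides and 1 match to the CAAT motif on the opposite strand. For Chn1, outer and inner are meant between the 2 starts shown. Its annotated gene reaches base 73775367, so the last bases of its outer window lie within the gene. Among 32851 upstream windows of the same length, 32.7% held the GC box, 33.8% the CAAT motif, 12.4% the TATA motif, 14.4% the E-box variant and 1.55% the cAMP response element. A match describes these letters only. The spots give no value per start site, and no source used here says which part of the transcript they cover.

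Values are log2 ratios of the 2 channels with each array's median subtracted, so 0 is the middle spot of that array. No label names the numerator, so a positive value is not assigned to mutant or wildtype. The mean ratio averages the 2 arrays of a mouse, and contrasts mutant and pool if every array has the same RNA on top. If Cy5 is always on top, the mean ratio measures an effect of the dye instead. The swap component is the Cy5-labelled mutant's value less the Cy3-labelled mutant's value, divided by 2. It equals the mean ratio after the sign is turned on the arrays with the mutant in Cy3. If Cy5 is always on top, it measures mutant over pool, and if the same RNA is always on top, it measures an effect of the dye. All array pairs correlated positively over all spots: r was 0.22 to 0.40 between arrays with the mutant in Cy5, 0.43 to 0.68 between arrays with the mutant in Cy3 and 0.15 to 0.41 between orientations.

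The 8 arrays held 20211 to 20559 usable values each. Gene names rest on a shift of 11 between annotation number and spot number, found in the data and used up to annotation number 20000. Over 1895 genes with 2 spots, the mean ratios of the spots had a Spearman correlation of 0.24 under this naming, against -0.0019 over 1880 genes at the same number. These correlations and the Adarb1 values come from the data in which the shift was found, so they are no independent check of the naming. Of 3 spots of Adarb1, which encodes ADAR2, spots 18759 and 18422 had swap components of -1.33 and -1.23, ranks 4 and 8 from the lowest of 18797 (limma, adjusted p = 0.0424 and 0.0383). Its spot 14946 had -0.10 (adjusted p = 0.628). The calls of spots 18759 and 18422 were lost without subtraction of medians (limma, adjusted p = 0.0642 and 0.0591). They were also lost with runs of 48 neighbouring spots centred (0.0594 and 0.0578), with arrays scaled to one spread (0.177 each) and without any 1 mouse (0.0991 to 0.162). With the mutant in Cy3, spot 18759 ranged from -0.71 in mouse 1 to 3.47 in mouse 2. The mean ratios of spots 18422, 18759 and 14946 were 0.70, 0.26 and 0.12 (limma, adjusted p = 0.0297, 0.667 and 0.631). Spot 18422 had means of -0.53 in the Cy5 and 1.93 in the Cy3 orientation. Its mean ratio call was lost with values as deposited and with arrays scaled to one spread (limma, adjusted p = 0.0962 and 0.38). The array gives ratios and no levels, so the label of the tissue could not be set against marker levels.

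Chn1 was measured by spot 16106 and had the largest mean ratio of the 5 spots. With the mutant in Cy5, mice 1 to 4 gave log2 ratios of 0.31, 0.47, 0.37 and 0.71. With the mutant in Cy3, the same mice gave 1.98, 2.25, 2.40 and 2.24. All 8 values were positive, and every value in the Cy3 orientation lay above every value in the Cy5 orientation. Between 71.2% and 87.3% of the spots on an array lay below Chn1 in the Cy5 orientation, and 99.1% to 99.8% in the Cy3 orientation. The mean ratio was 1.34 ± 0.14 (SD, n = 4 mice), a channel ratio of 2.53 relative to the middle spot, with the mice between 1.14 and 1.47. It ranked 21 from the highest of 20595 spots. Among spots with 8 values, 13.1% were positive on all 8 arrays, and 16.7% had every Cy3 value above every Cy5 value.

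Lmo4 was measured by spots 3684 and 15773, which gave similar values before any centring of neighbouring spots. Spot 3684 had 0.38, 0.37, 0.32 and 0.15 with the mutant in Cy5, in the order of the mice, and 1.72, 1.60, 1.93 and 1.63 with the mutant in Cy3. Spot 15773 had 0.61, 0.48, 0.33 and 0.46 with the mutant in Cy5, and 1.52, 1.60, 1.68 and 2.28 with the mutant in Cy3. At both spots every Cy3 value lay above every Cy5 value, as in 16.7% of spots with 8 values, and all 16 values were positive. The value of mouse 4 in Cy3 at spot 15773 stood above the 7 other Cy3 values of Lmo4. The mean ratio was 1.01 ± 0.10 at spot 3684 and 1.12 ± 0.17 at spot 15773 (SD, n = 4 mice each). With each run of 48 neighbouring spots centred on its median, spot 15773 had 0.63 and spot 3684 had 1.01. The spots differed by a root mean square of 0.30 over 8 arrays, where the median over 1698 genes with 2 spots was 0.99 (quartiles 0.69 and 1.36). Lmo4 was selected on its mean ratio over these arrays and those genes were not, so this comparison is a description only.

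Cbln1 was measured by spots 3182 and 18608, which differed in the Cy3 orientation. Spot 3182 had 0.27, 0.33, 0.48 and 0.07 with the mutant in Cy5, and 1.62, 1.34, 1.04 and 1.38 with the mutant in Cy3. Its orientations did not overlap, and its mean ratio was 0.81 ± 0.10 (SD, n = 4 mice). The Cy3 value of mouse 4 at spot 3182 was a whole-number ratio, a sign of a weak spot. With such ratios left out, the mean ratio of spot 3182 was 0.64, in which mouse 4 rests on its Cy5 array alone. Spot 18608 had 0.50, 0.66 and 0.16 with the mutant in Cy5 (mice 1, 3 and 4) and no value for mouse 2, and 0.73, 0.25, -0.03 and 0.54 with the mutant in Cy3. Here the orientations overlapped, 6 of 7 values were positive, and 48.4% to 71.3% of the spots on a Cy3 array lay below it. Its mean ratio was 0.38 ± 0.16, in which mouse 2 rests on its Cy3 array alone, and was -0.01 once each run of 48 neighbouring spots was centred on its median. Spot 3182 minus spot 18608 was -0.16 on average in the Cy5 orientation and 0.97 in the Cy3 orientation, so the spots differed on the Cy3 arrays. Their root mean square difference was 0.75 over 7 arrays, below the median of 0.99 over 1698 genes with 2 spots. Cbln1 was also selected on its mean ratio, so this is a description.

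**Figure D1:**
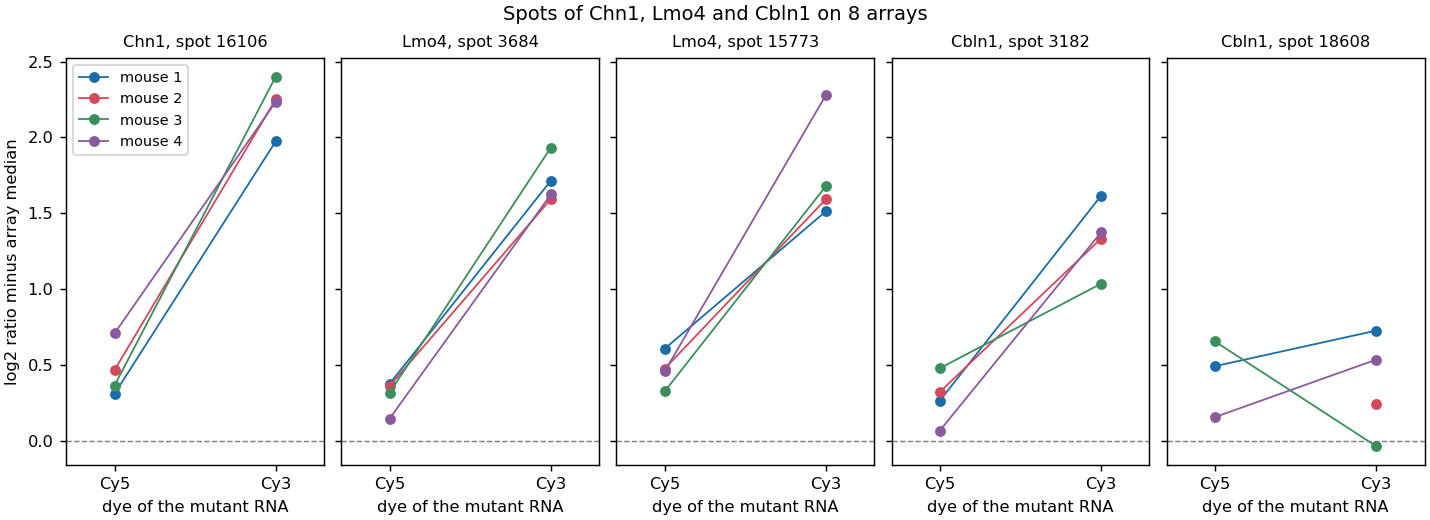
Log2 ratio minus array median (vertical axis) for the 5 spots of Chn1, Lmo4 and Cbln1, by the dye of the mutant RNA (horizontal axis). Lines join the 2 arrays of a mouse. The Cy3 values of Chn1 lie between 1.98 and 2.40, above its Cy5 values of 0.31 to 0.71, whereas the orientations of Cbln1 spot 18608 overlap.

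Ordered by mean ratio, the mice of Chn1 (1.14 to 1.47) overlapped those of Lmo4 spot 15773 (1.01 to 1.37), and those overlapped Lmo4 spot 3684 (0.89 to 1.13). Lmo4 spot 3684 overlapped Cbln1 spot 3182 (0.72 to 0.94) in the same way, and Cbln1 spot 18608 (0.25 to 0.61) lay below the other 4 spots. The order was set in the Cy3 orientation. There Chn1 exceeded Lmo4 spot 3684 by 0.50 and Cbln1 spot 3182 by 0.87 on average. In the Cy5 orientation Chn1 exceeded the same spots by 0.16 and 0.18. Calls in the mean ratio were made for 30.4% of the 20595 spots tested, of which the positive ones were 17% and the negative ones 13.3% of all (limma with Benjamini-Hochberg adjustment, 3507 and 2749 spots). In the Cy3 orientation alone 34.3% of spots were called, and in the Cy5 orientation alone 0% (4748 spots at an unadjusted p below 0.05). As deposited, without subtraction of medians, the calls were 2286 positive and 3819 negative. The median of all spots moved by -0.16, and the mean ratios of the members became 1.18 for Chn1, 0.85 and 0.96 for Lmo4 (spots 3684 and 15773) and 0.65 and 0.19 for Cbln1 (spots 3182 and 18608).

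The swap component is built from the same 8 arrays as the mean ratio on which the genes were selected. Across 18797 spots with 8 values they correlated at r = -0.56, so a choice of spots with a high mean ratio favours negative swap components, and the members' values are described without a test. Chn1 had a swap component of -0.88 ± 0.108 (SD, n = 4 mice), with mice 1 to 4 at -0.83, -0.89, -1.02 and -0.76. Lmo4 had -0.71 ± 0.0831 at spot 3684 and -0.65 ± 0.196 at spot 15773 (SD, n = 4 mice each), negative in 4 of 4 mice at both. Cbln1 spot 3182 had -0.53 ± 0.182 (SD, n = 4 mice), with its mice at -0.67, -0.50, -0.28 and -0.65. Cbln1 spot 18608 had both arrays in 3 mice, which stood at -0.12, 0.34 and -0.19.

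The negative swap components of Chn1 and Lmo4 share their sign with most spots of positive mean ratio. Over the array, the swap component was called in 7.84% of spots, negative in 6.43% and positive in 1.41% (limma with Benjamini-Hochberg adjustment). The count of called spots was 1473, and it was 0 with values as deposited, with runs of 48 spots centred, with arrays scaled to one spread and without any 1 mouse (limma, 3815 to 5785 spots at an unadjusted p below 0.05). Every Cy3 array lay above every Cy5 array in 16.7% of spots, the reverse held in 5.63%, and the first held in 4 of the 4 member spots with 8 values. Of 9011 spots with a positive mean ratio, 77.3% had a negative swap component. The standard deviation over spots of the orientation mean was 0.52 with the mutant in Cy5 and 0.90 with the mutant in Cy3. After each array was scaled to the same median absolute deviation, the swap components were -0.53 for Chn1, -0.44 and -0.35 for Lmo4 (spots 3684 and 15773) and -0.30 for Cbln1 spot 3182.

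**Figure D2:**
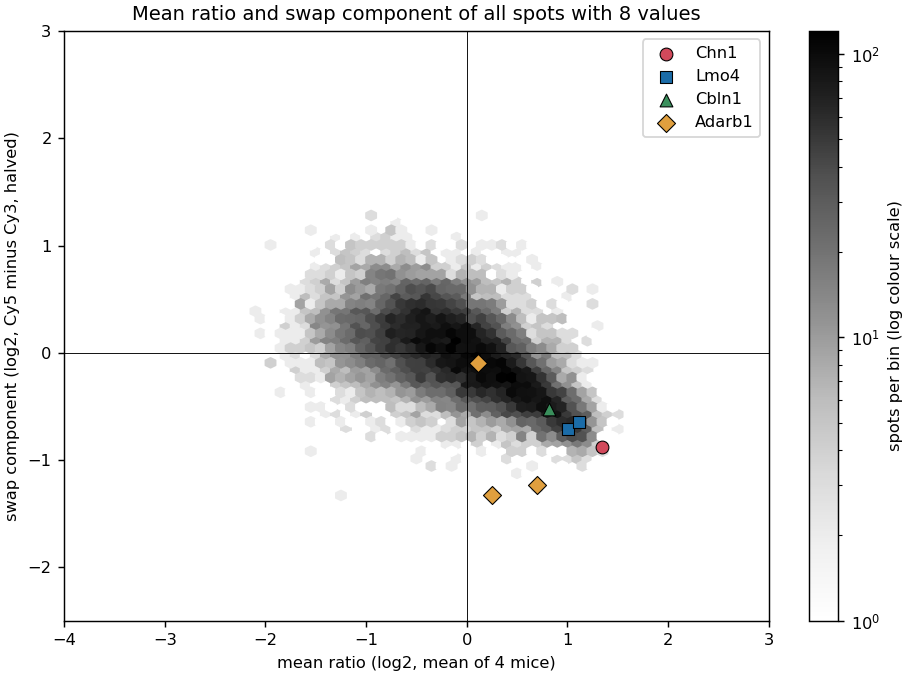
Mean ratio (horizontal axis, log2) and swap component (vertical axis, log2) of 18797 spots with 8 values, shaded by the number of spots per bin on a log colour scale. Chn1 (1.34, -0.88), both Lmo4 spots and Cbln1 spot 3182 lie in the lower right arm of the cloud, while 2 of 3 Adarb1 spots lie below it.

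The named spots with values closest to each member were found by the root mean square difference over the 8 arrays. For Chn1 they were Calm2, which encodes calmodulin (0.13), the neuronal secreted protein gene Olfm1 (0.18) and Syt1, the calcium sensor of synaptic vesicles (0.19). There were 11099 candidates, with a median of 1.67. The match is of 1 Syt1 spot, 16825, with a mean ratio of 1.25. Over its 3 spots the Syt1 gene had 0.38 and was not called (limma, adjusted p = 0.0636). For Lmo4 spot 3684 they were Efcab1 (0.079), the histone gene H3f3b (0.092) and the ribosomal protein gene Rpl5 (0.12). For Lmo4 spot 15773 they were the neuronal stathmin gene Stmn3 (0.17), the small GTPase gene Rhob (0.20) and Abraxas2 (0.20). The other spot of Lmo4 ranked 342 and 114 among 11098 candidates, so many spots of other genes were closer to spot 3684 than the other spot of its own gene. For Cbln1 spot 3182 the closest were Smim14 (0.13), Tmem167 (0.14) and the phosphatase gene Ppm1l (0.15).

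Around alpha-chimaerin, the GTPases and the Cdk5 activator had positive mean ratios and 2 ephrins negative ones. Of 14 tested genes of the chimaerin and Eph-ephrin list, 5 were called positive and 3 negative, against 17.5% and 11.6% of 8605 genes tested and 29.1% in either direction (limma, gene means over spots, adjusted p below 0.05). The list's median was 0.08 and that of all genes -0.02. Rac1, the GTPase that alpha-chimaerin switches off, had 1.19 ± 0.134 (moderated SE, adjusted p = 0.00755), with means of 0.59 in the Cy5 and 1.79 in the Cy3 orientation. Cdk5r1, the activator p35 of the neuronal kinase Cdk5, had 1.12 ± 0.139, and Cdc42, another small GTPase, had 0.83 ± 0.116. Chn2, the beta-chimaerin paralogue, had 0.63 ± 0.146 (adjusted p = 0.0269). Its mean was -0.0024 in the Cy5 orientation and 1.25 in the Cy3 orientation, so its positive value came from the Cy3 arrays. Epha4, the Eph receptor that signals through alpha-chimaerin in motor circuits of mice, had 0.55 ± 0.121.

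The negative calls were Vav2, an exchange factor that switches Rac on (-1.06 ± 0.23), Efnb3, the midline ephrin of that circuit (-0.94 ± 0.271), and Efnb2 (-0.59 ± 0.156). The adaptors Nck1 and Nck2, Cdk5, Prkcd, Dpysl2 and Tiam1 were not called and lay between -0.23 and 0.26. The count of calls in this list was 4 without mouse 1 and 3 without mouse 2 or mouse 3. Epha4 and Efnb3 lost their calls without any 1 mouse (limma, adjusted p = 0.0653 to 0.0766 and 0.052 to 0.152), and Efnb2 without mouse 1, 2 or 3 (0.0946 to 0.115). Chn2 lost its call without mouse 1, 2 or 3 (limma, adjusted p = 0.0751 to 0.104) and with arrays scaled to one spread (0.0517). Vav2 lost its call without mouse 2 or 3 (limma, adjusted p = 0.0569 and 0.0747) and with runs of 48 spots centred (0.0563). Epha4 was 0.17 with runs of 48 spots centred (limma, adjusted p = 0.296) and lost its call with values as deposited (0.0687). Without whole-number ratios Efnb3 was -0.68 and Efnb2 -0.49, and both calls were lost (limma, adjusted p = 0.222 and 0.138). Efnb2 also lost its call with arrays scaled to one spread (0.0605). The swap component was called negative in 4 of these 14 genes, against 6.82% of 8119 genes (1.07% positive, 7.9% in either direction). They were Chn2 (-0.63), Rac1 (-0.60), Cdc42 (-0.50) and Cdk5r1 (-0.77), the last with an adjusted p of 0.0297.

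Among partners of Lmo4, 1 of 6 tested genes was called, against 29.1% of all genes, so the count is no larger than the background. Ssbp2, which stabilises Ldb1 in LIM complexes, had a mean ratio of 0.72 ± 0.142 (limma, adjusted p = 0.0166) and was positive on all 8 arrays. Its call was lost with values as deposited (adjusted p = 0.0614) and without mouse 2, 3 or 4 (0.0581 to 0.0646). Ldb1 itself had 0.31 ± 0.133 and the paralogue Lmo1 had 0.30 ± 0.157, and neither was called (adjusted p = 0.128 and 0.193). Ssbp3 (-0.06), the LIM-homeodomain factor Lhx2 (-0.17) and Deaf1, a transcription factor that binds Lmo4 (-0.33), were not called either. The median of the 6 was 0.12. No swap component of this list was called in 5 tested genes (limma, 0 calls).

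Among cerebellins and their partners, 1 of 4 tested genes was called, which is near the 29.1% of all genes. Grid1, which encodes a delta glutamate receptor that is widely expressed in forebrain, had 0.59 ± 0.124 (limma, adjusted p = 0.0194) and was positive on all 8 arrays. Its call was lost with values as deposited (adjusted p = 0.0538), with runs of 48 spots centred (0.0781) and without any 1 mouse (0.0578 to 0.0676). The paralogue Cbln2 had 0.33 ± 0.189 (adjusted p = 0.225). The C1q-like genes had wide errors, with C1ql1, made by climbing fibre neurons, at -0.70 ± 0.567 and C1ql3 at 0.03 ± 0.307. The median of the 4 was 0.18, and none had a called swap component.

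**Figure D3:**
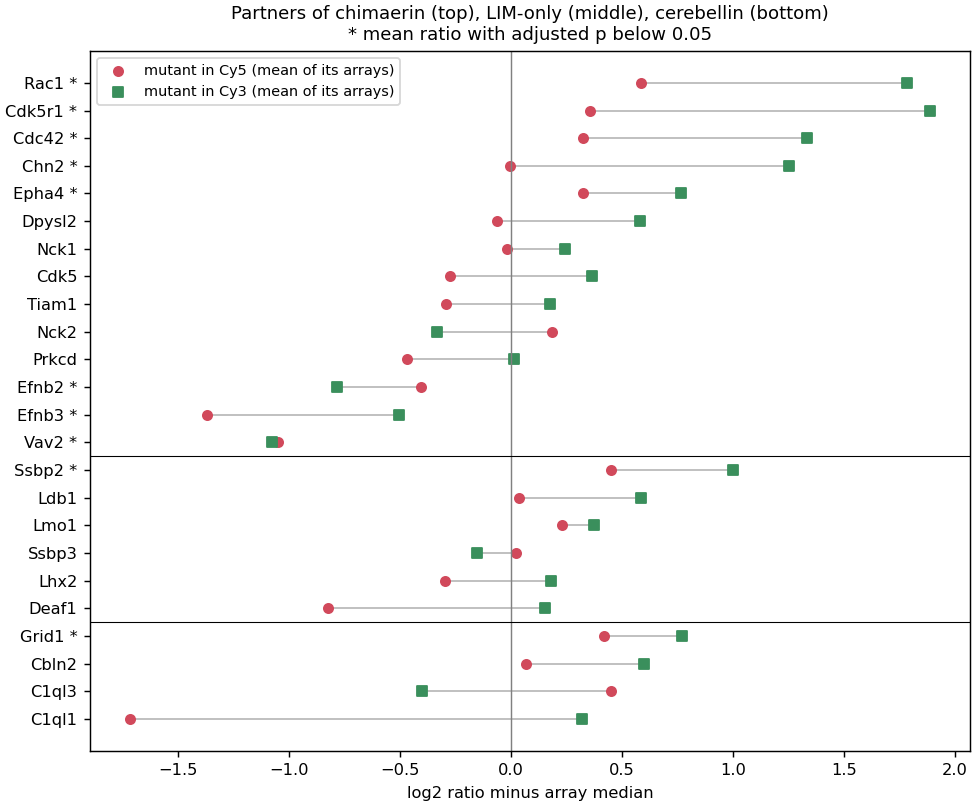
Log2 ratio minus array median (horizontal axis) of the listed partners of Chn1 (top), Lmo4 (middle) and Cbln1 (bottom), as means over the arrays with the mutant in Cy5 (circles) and in Cy3 (squares), with an asterisk for an adjusted p below 0.05 in the mean ratio. Rac1 and Cdk5r1 are positive in both orientations, while Chn2 is near 0 in Cy5 and at 1.25 in Cy3.

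Other markers of forebrain glutamatergic neurons had mostly positive mean ratios. Of 16 tested, 12 were called positive and none negative, and the median was 0.75. Of all genes, 17.5% were called positive and 11.6% negative, with a median of -0.02. Rgs4, a regulator of G protein signalling of cortical neurons, had 1.05 ± 0.125, the exchange factor gene Rasgrf1 had 1.04 ± 0.154 and Camk2a, the alpha subunit of the calcium/calmodulin kinase of synapses, had 1.03 ± 0.141. Lmo4 (1.06 as the mean of its spots) stood beside these and Chn1 (1.34) above the highest of them. Chn1 and Lmo4 were selected on this mean ratio, so their place is a description. This list and the other marker lists were chosen with earlier results of these data known. The 4 uncalled genes, named after their values were seen, were Fezf2 (0.04), Cux1 (-0.15), Bcl11b (0.21) and Arpp21 (0.14). Slc17a7, the vesicular glutamate transporter gene of cortical and granule neurons, was likewise named afterwards. It had 6 values and was not tested, with means of -0.72 in the Cy5 and -2.48 in the Cy3 orientation. Without mouse 3 the count of the list was 7, and with runs of 48 spots centred it was 5. That centring gave Rgs4 0.63 and Rasgrf1 0.50, and Rasgrf1 lost its call (limma, adjusted p = 0.0587).

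Of 10 tested granule cell markers of the cerebellum, 4 were called positive and none negative, with a median of 0.50, against 17.5% positive and 11.6% negative calls among all genes. Vsnl1, a neuronal calcium sensor that forebrain neurons also express, had 0.99 ± 0.117, Rgs8, better known from Purkinje cells, had 0.96 ± 0.126 and the zinc finger gene Zic1 had 0.85 ± 0.174. Cbln1 had 0.60 as the mean of its spots, below the 4 called members, which lay between 0.65 and 0.99. Barhl1, named after its values were seen, was the 1 gene of the list whose swap component was called positive (0.67, limma, adjusted p = 0.0466). Its mean was 1.55 in the Cy5 orientation and 0.20 in the Cy3 orientation, the reverse of Cbln1 spot 3182. Without mouse 3 the count of this list was 2. With runs of 48 spots centred, Vsnl1 was 0.57, Rgs8 0.55 and Zic1 0.36, and Zic1 lost its call (limma, adjusted p = 0.199). Zic1 also lost it with values as deposited (0.0508), with arrays scaled (0.0616) and without mouse 3 or mouse 4 (0.0583 and 0.064). Of 8 tested Purkinje cell markers, 3 were called positive, against 17.5% of all genes, with a median of 0.32: the potassium channel gene Kcna1 (1.16 ± 0.12), Dner (0.88 ± 0.119) and the phospholipase gene Plcb4 (0.67 ± 0.151). With runs of 48 spots centred, Kcna1 was 0.63, Dner 0.32 and Plcb4 0.15, and the calls of Dner and Plcb4 were lost (limma, adjusted p = 0.12 and 0.442). Plcb4 also lost its call with values as deposited (0.0724), with arrays scaled (0.0624) and without mouse 1, 3 or 4 (0.0641 to 0.0866). Pcp2, a gene largely restricted to these cells and named after its value was seen, had 0.29 ± 0.186 and was not called. The Purkinje list ranged from -0.95 to 1.16. Pcp4 (-0.95 ± 0.416, positive on 1 of 5 arrays) and Pvalb (-0.47 ± 0.44, positive on 3 of 8), also named afterwards, were not called either.

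Pan-neuronal markers had 11 positive calls of 15 and a median of 0.82, led by Uchl1 (1.13 ± 0.127), Stmn3 (1.08 ± 0.127) and Syn1, a synaptic vesicle phosphoprotein (1.01 ± 0.13). With runs of 48 spots centred, Stmn3 was 0.64 and Syn1 0.57. Among all genes, 17.5% were called positive, 11.6% negative and 29.1% in either direction, with a median of -0.02. Markers of other cells in the brain moved with the neuron genes in part. Oligodendrocyte markers had 5 positive calls of 8 (median 0.61, range -0.19 to 1.08), astrocyte markers 4 of 10 (median 0.33, range -0.53 to 1.25) and inhibitory neuron markers 4 positive and 1 negative of 8 (median 0.41, range -1.38 to 0.93). Microglia markers had 1 positive and 3 negative calls of 6 (median -0.40), endothelial, choroid plexus and blood markers 3 and 2 of 7 (median 0.24), and pituitary markers 1 negative call of 5 (median -0.02), the last near the background. In the Cy5 orientation alone, 0 genes of any of these lists were called. The oligodendrocyte count was 2 without mouse 3 and 3 without mouse 1 or mouse 2, and the inhibitory neuron count of 5 was 1 or 2 without any 1 mouse. The pituitary call was lost without mouse 1, 3 or 4. The part of these cells in the values of Chn1, Lmo4 and Cbln1 was not tested.

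**Figure D4:**
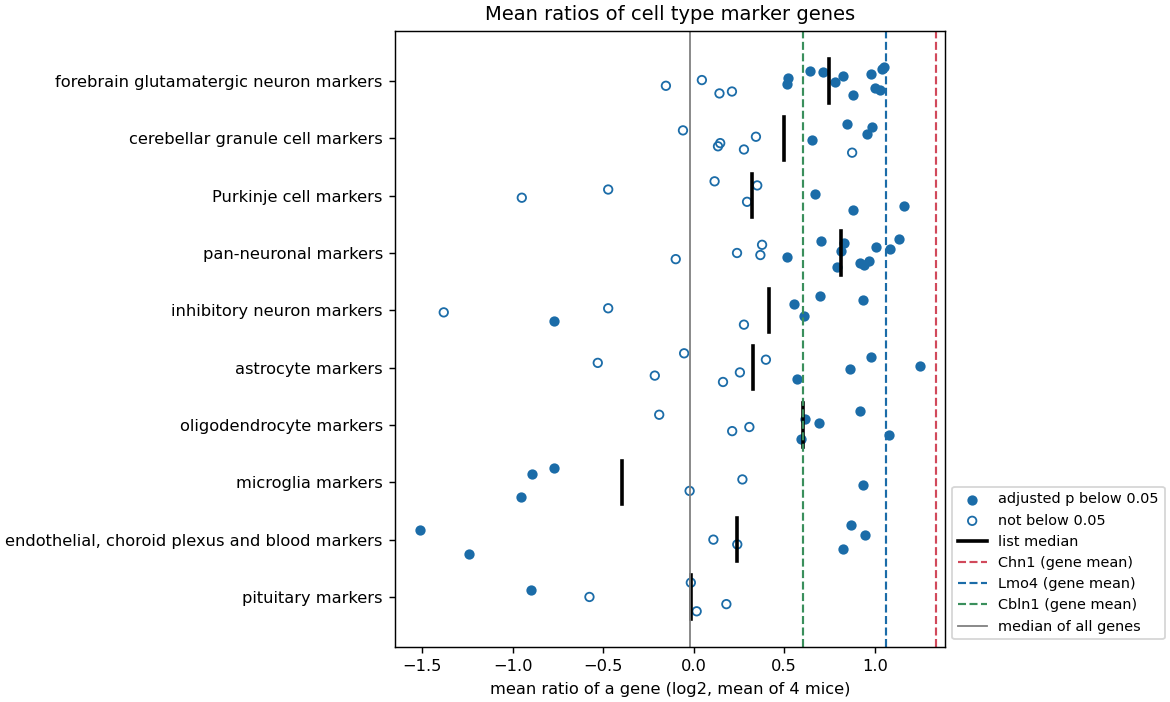
Mean ratio of each tested marker gene (points, log2, horizontal axis) by cell type list, filled where the adjusted p was below 0.05, with the list median as a black bar. The forebrain glutamatergic and pan-neuronal medians are 0.75 and 0.82, and dashed lines give Chn1 (1.34), Lmo4 (1.06) and Cbln1 (0.60) as gene means.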

How the data were processed

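Per the labels' protocols, total RNA was purified from each brain, and its cDNA carried 1 dye by indirect labelling while the pool carried the other. The authors deposited 1 table of log2 ratios for 20794 spots on 8 arrays, and its log2 scale was read from the values. Background correction, normalisation and genome build were not stated in the labels used here. Values equal to log2 of 100000 plus a constant of the array (1 to 30 per array) counted as missing, and 221 to 553 cells were empty. Each array's median (-0.57 to -0.0045) was subtracted. The 2 arrays of a mouse were averaged for the mean ratio and subtracted for the swap component, and an intercept model in limma 3.58.1 under R 4.3.3 (moderated by eBayes, Benjamini-Hochberg adjusted, threshold 0.05) tested 4 mice against 0. A spot needed a value in every mouse (20595 spots) or on all 8 arrays (18797, swap component). The script's test was checked on simulated data. No spot intensities were used here, so precision rests on the number of arrays and mice.

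Gene symbols came from the platform annotation, and all 12771 annotated entries were matched to RefSeq by gene identifier. Members, naming and gene lists were chosen with earlier results of these data known. Named were every spot of the members and of Adarb1, the 3 closest named spots of each member spot with 8 values, all listed partners and up to 3 called genes of each neuron list. The rule allowed 4. Whole-number ratios, a sign of weak spots, were those within 0.001 of log2 of a ratio of numbers up to 10.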

Additional observations from a re-analysis of the deposited data

Results flagged for a closer look

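At Lmo4 spot 15773, mouse 4 had a mean ratio of 1.37, apart from the other mice at 1.01 to 1.06. The gap came from its Cy3 array (2.28). At Ldb1, mouse 1 had a gene mean ratio of 0.605, apart from the other mice at 0.19 to 0.25. These were 2 of 60 groups of 4 mice examined with Dixon's criterion, and chance flags about 1 in 20.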

How the results depend on the processing

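The count of spots called in the mean ratio (6256) lay between 4414 and 7742 with values as deposited, runs of 48 spots centred, whole-number ratios left out, arrays scaled to one spread (chosen after seeing the data), values on all 8 arrays required, the 4 Cy3 arrays alone, or the mouse as a random replicate block. It was 0 in the Cy5 orientation alone (limma, 4748 spots at an unadjusted p below 0.05) and 2483 to 3931 with 1 mouse left out. The count in the Cy3 orientation (6625) was 3006 to 4973 with 1 mouse left out. The count in the swap component (1473) was 0 as deposited, with runs of 48 spots centred, with arrays scaled, and with any 1 mouse left out (3815 to 5785 spots at an unadjusted p below 0.05 over these). It was 2149 without whole-number ratios and 2465 with no replicate block, that is, without the pairing of a mouse's 2 arrays. The consensus correlation of a mouse's arrays was -0.18. The cause of these differences was not tested, except that 3 mice give the test fewer degrees of freedom.

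With 1 mouse left out, the mean ratio was 1.296 to 1.406 for Chn1, 0.97 to 1.05 and 1.03 to 1.16 for Lmo4 (spots 3684 and 15773) and 0.77 to 0.84 and 0.30 to 0.42 for Cbln1 (spots 3182 and 18608). With runs centred it was 1.03, 1.01, 0.63, 0.63 and -0.01 in the same order. With names at the same spot number, the spots read as the members were others and stood at 0.46, 0.86, 0.85, 0.58 and -0.21. Among called genes and spots named here, signs turned there for Efnb3 (0.79), Efnb2 (0.84), Rac1 (-0.31), Ssbp2 (-0.060), Grid1 (-0.59), Camk2a (-0.26), Rgs8 (-1.11), Dner (-0.12), Syn1 (-0.44) and, in the swap component, Adarb1 spot 18759 (0.33). In the Cy5 orientation alone, the called values that turned were those of Chn2 (-0.0024) and of the mean ratio of Adarb1 spot 18422 (-0.53). Some uncalled values turned as well, among them Ldb1 (-0.73, adjusted p = 0.0145 by limma) and Lmo1 (-0.14) with names at the same spot number, and Dpysl2 (-0.06), Cdk5 (-0.28) and Adarb1 spot 18759 (-1.07) in the Cy5 orientation alone.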
